A study of Mus musculus with 11 samples.

Results

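Psca, Ly6d, Ly6a, Ly6e and Ly6c1 encode small cell-surface proteins of the LY6/uPAR family, and their RNA was followed in mouse livers in which YAP had been switched on for 3 or 7 days. The 5 genes were taken by symbol from the 20893 genes of the expression table. They were chosen by the measured values: Psca stood among the largest rises of the 7-day livers over the controls, and the other 4 are its relatives. For this reason every value that involves the 7-day livers is given for them as a description, with no test.

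Proteins of this family fold into a compact domain of 3 loops held by disulfide bonds. Most are fixed to the outer face of the cell membrane by a glycosylphosphatidylinositol (GPI) lipid anchor, and a few are secreted. Psca, prostate stem cell antigen, is best known from the epithelium of prostate, bladder and stomach and is raised in several carcinomas. Ly6d marks early B lymphoid cells and keratinocytes. Ly6a, also called Sca-1, marks blood stem and progenitor cells, endothelium and activated T cells and responds to interferon. Ly6e is made in many cell types and also responds to interferon, and Ly6c1 is a surface marker of endothelial cells.

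RNA was prepared from whole C57BL/6 livers. The 4 control livers carried ROSA26-rtTA-IRES-EGFP without the YAP transgene (labelled WT) and came from mice given doxycycline food for 7 days. The induced livers carried ROSA26-rtTA-IRES-EGFP together with tetYAP, 4 from mice given doxycycline for 3 days and 3 from mice given it for 7 days. Per the study's methods, Cre under the albumin promoter switches on rtTA in hepatocytes, and rtTA with doxycycline then switches on a YAP mutant that escapes inhibitory phosphorylation. No 3-day control was among the samples, and age is not given in the labels. The comparisons ask what changes after a short and a longer induction.

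Values are eRPKM, an RPKM over exons: reads scaled to the length of the gene and to the reads of the library. Reads on genes numbered 1251396 to 5495697 per control library, against 2660233 to 3681416 after 3 days and 5312486 to 5941357 after 7 days. By Xist and the Y-linked gene Ddx3y, controls and 3-day livers comprised 2 females and 2 males each, whereas all 3 livers at 7 days were female. Control livers 1 and 2 and 7-day liver 2 stood apart with 17392 to 19280 genes seen, against 14630 to 15809 in the other 8 libraries. Yap1 was at 13.9 to 21.1 eRPKM in controls, with 15.3 to 19.3 after 3 days and 17.4 to 19.0 after 7 days. Cyr61, a well-known YAP target, spanned 5.76 to 14.3, 26.8 to 53.4 and 90.5 to 91.3 eRPKM in the same order. In bulk tissue, fewer cells of a type and less RNA per cell cannot be told apart.

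Psca was nearly silent in the control and 3-day livers. The gene lies on chromosome 15, 74545269 to 74547493, plus strand (mm9). Control livers 1 to 4 gave 0.58, 0.41, 0 and 0.91 eRPKM, from 2, 2, 0 and 1 reads. All 4 livers at 3 days gave 0, and 3 reads in those libraries would have been 0.924 to 1.28 eRPKM. Livers 1 to 3 at 7 days gave 28.3, 54.7 and 48.0 eRPKM, from 134, 287 and 225 reads. Every 7-day liver was thus far above every other liver, and liver 1 was the lowest of the 3.

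The mean of Psca at 7 days was 43.7 eRPKM ± 13.7 (SD, n = 3), against 0.475 ± 0.377 in controls (n = 4). In pooled reads per reads on genes, Psca was 102-fold higher than in controls, with a 95% interval of 43.3 to 314 that covers counting error only. Against the 3-day livers it was at least 177-fold higher, taking 3 reads over the group as the floor. On the log2(eRPKM + 0.5) scale the difference was 5.54 (SE 0.34) from controls and 6.41 (SE 0.34) from 3 days, placing Psca at rank 4 and rank 2 of the rises among 14244 genes tested. The filter on low values asked for at least 0.5 eRPKM in 3 libraries. Psca reached this level in 2 of the 8 control and 3-day libraries, so it was tested only because it was high at 7 days.

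Ly6d differed from Psca in being detected in all 11 livers and in having intermediate values at 3 days. It lies 48.7 kb from Psca, measured between their outer ends (chromosome 15, 74592486 to 74593997, minus strand). Control livers 1 to 4 gave 1.08, 1.79, 5.83 and 2.25 eRPKM, from 2 to 10 reads each. The 3-day livers gave 3.69, 5.03, 14.9 and 32.0 eRPKM, from 7, 13, 39 and 84 reads. The 7-day livers gave 102, 83.8 and 91.2 eRPKM, from 345 to 390 reads. Livers 3 and 4 at 3 days were above all controls, while livers 1 and 2 overlapped them, and all 7-day livers were above all others.

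The 2 high livers at 3 days were the females, at 14.9 and 32.0 eRPKM, and the 2 low ones the males, at 3.69 and 5.03. In controls the females gave 1.79 and 5.83 eRPKM and the males 1.08 and 2.25. Liver 1 at 3 days, the lowest in Ly6d, was also the shallowest of the 4 with 2660233 reads on genes, while livers 2, 3 and 4 held 3626710, 3681416 and 3678729. The part of sex and of depth in this spread was not tested.

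The 3-day difference of Ly6d on the log2 scale was 1.88 (SE 0.57, 95% interval 0.65 to 3.11). It did not pass, with a limma adjusted p of 0.191 over all genes and an exact permutation p of 0.0857, two-sided, where 4 livers against 4 can give no less than 0.0286. The adjusted p ran from 0.0611 to 0.50 over 24 alternatives. At 7 days the mean was 92.4 eRPKM ± 9.26 (SD, n = 3) against 2.74 ± 2.12 in controls (n = 4). That is 5.04 (SE 0.61) on the log2 scale, rank 8 of the rises among all genes tested, and 38.9-fold in pooled reads (25.6 to 62.4). Against 3 days the log2 difference was 3.16 (SE 0.61), and 2.05 among female livers alone.

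**Figure D1:**
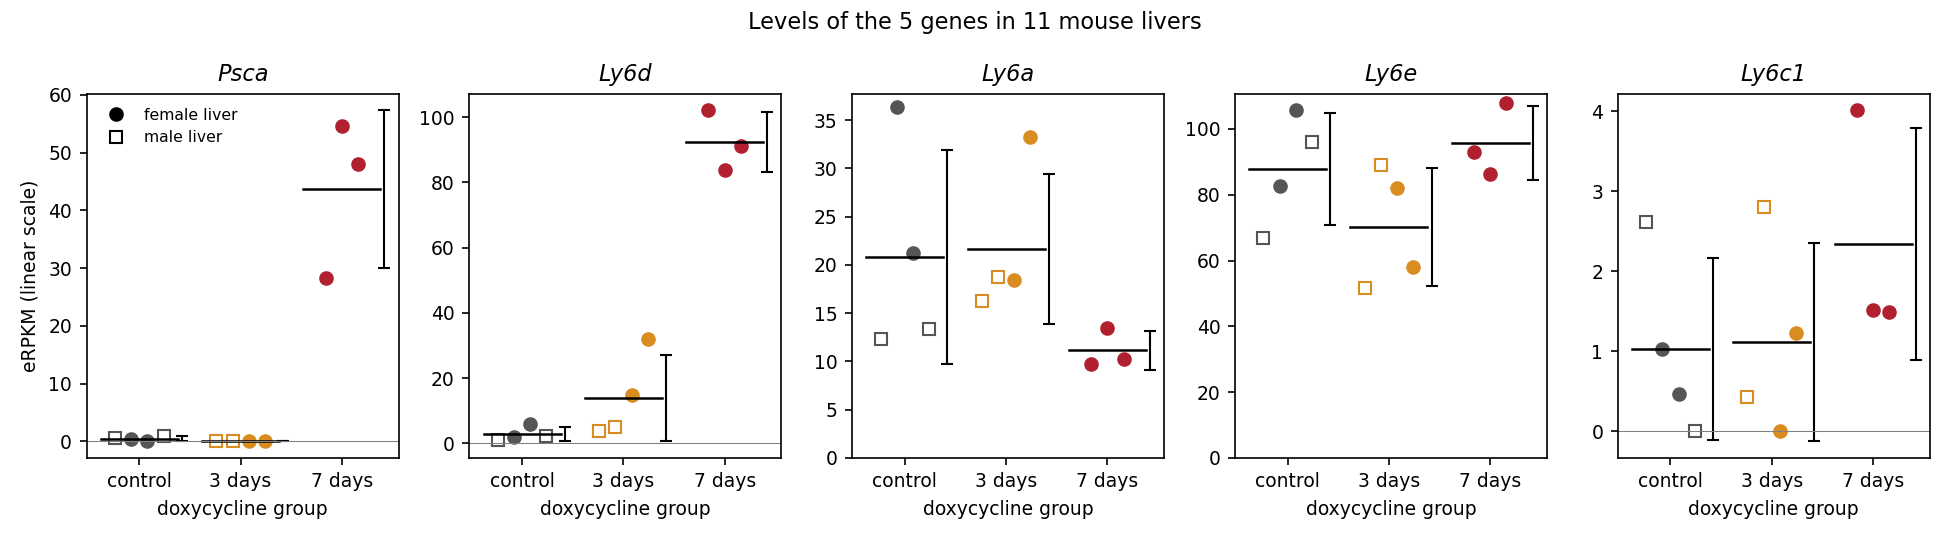
eRPKM of each gene (linear vertical axis) in control, 3-day and 7-day livers; each point is a liver, filled circles are females, open squares are males, the line is the group mean and the bar its SD. Psca is at 28.3 to 54.7 in the 7-day livers and at most 0.91 elsewhere, while Ly6d reaches 32.0 in a 3-day liver and 83.8 or more at 7 days.

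Ly6a had its lowest values at 7 days. It lies at chromosome 15, 74825308 to 74828064, minus strand. Control livers 1 to 4 gave 12.3, 36.4, 21.3 and 13.3 eRPKM. After 3 days the values were 16.3, 18.7, 18.4 and 33.2, and after 7 days 9.76, 13.5 and 10.3. The 7-day livers were below all 3-day livers and overlapped the controls through the 2 male controls, which stood at 12.3 and 13.3. Among female livers the 7-day values did not overlap the control females (21.3 and 36.4) or the 3-day females (18.4 and 33.2). Each of these sets 3 livers against 2, and the share of all genes that do so was not computed. Over livers of both sexes, 13.3% of all genes stood below all controls at 7 days and 13.8% below all 3-day livers.

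At 3 days Ly6a did not differ detectably from controls, with a log2 difference of 0.13 (SE 0.32, 95% interval -0.55 to 0.82, limma adjusted p = 0.900). The sign of this value turned negative in 5 of 24 alternatives. At 7 days the log2 difference from controls was -0.75 (SE 0.34) over all livers and -1.29 (SE 0.31) among female livers. In pooled reads the ratio was 0.465 (0.382 to 0.564, counting error only).

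Ly6e was the most abundant of the 5 per length in controls, and its group means lay close together. It lies at chromosome 15, 74785481 to 74790335, plus strand. Controls gave 66.9, 82.6, 105.8 and 96.1 eRPKM. After 3 days the values were 51.7, 88.9, 81.9 and 58.1, and after 7 days 92.9, 86.3 and 108.0. All groups overlapped. The log2 difference was -0.34 at 3 days (SE 0.20, 95% interval -0.77 to 0.09, limma adjusted p = 0.522) and 0.14 at 7 days (SE 0.21). The sign of the 7-day value depended on scaling, with -0.13 under median-ratio scaling and 0.51 under quantile normalization.

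Ly6c1 stayed close to the limit of detection, with 0 to 19 reads per library. It lies at chromosome 15, 74875447 to 74879260, minus strand. Controls gave 2.61, 1.03, 0.47 and 0 eRPKM. After 3 days the values were 0.42, 2.81, 0 and 1.23, and after 7 days 4.01, 1.52 and 1.49. The groups overlapped, and a difference at 3 days was not detectable at this depth (log2 difference 0.05, SE 0.62, 95% interval -1.28 to 1.38, limma adjusted p = 0.983).

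The reads of Ly6c1 may also not be fully separable from those of its neighbour Ly6c2, which marks monocytes. Both coding sequences are 396 bases long in the GENCODE M1 transcripts and differ at 9 bases, with an identical run of 188 bases. The first 90 bases of both, 5′ to 3′, hold 6 of those 9 differences, shown in capitals. They are given because no other stretch of 90 bases holds more differences. Sequence outside the coding part was not compared between the 2 genes.
Ly6c1: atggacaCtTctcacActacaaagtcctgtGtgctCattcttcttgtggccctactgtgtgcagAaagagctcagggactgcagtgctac
Ly6c2: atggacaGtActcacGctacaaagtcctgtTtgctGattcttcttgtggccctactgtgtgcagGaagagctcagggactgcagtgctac
Of the 50-base windows of the Ly6c1 coding sequence, 162 of 347 also occur in Ly6c2. For Ly6a, 34 of 356 windows occur in Ly6c2 or Ly6i, while no window of Psca (323), Ly6d (335) or Ly6e (362) occurs in another gene's transcripts. The exons of the 5 genes overlap no other annotated gene, so counting without strand does not mix them with an antisense partner. The windows stand for single reads, whereas the authors aligned read pairs. How reads that match several genes were counted is not given. The level of Ly6c1 is therefore uncertain.

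A gene was called where its adjusted p was below 0.01 and its log2 difference was over 0.5 in size. At 3 days none of the 5 genes was called, where 0.0421% of all tested genes were. Of all genes, 6 were called and 1718 had an unadjusted p under 0.05 in the limma fit. None of the 5 had all 3-day livers above all controls, where 3.38% of all genes did. Psca had a log2 difference of -0.87 (SE 0.32, limma adjusted p = 0.289), which rests on 5 reads in controls and none at 3 days. At 7 days against control, 2 of the 5, Psca and Ly6d, were past the thresholds upward, where 18.0% of all genes were. The same 2 genes were past them at 7 days against 3 days, where the share was 14.0%. These 2 also had every 7-day liver above every control, as did 36.7% of all genes, and above every 3-day liver, as did 31.3%. Nothing is read from these counts, since the choice of genes used the 7-day values. Both comparisons share the 3 livers at 7 days. Over all genes 2561 rose and 822 fell at 7 days against control, with a median log2 difference of 0.26. This balance depends on scaling: median-ratio scaling gave 1951 and 1254 with a median of 0.03, and quantile normalization 1857 and 1821 with a median of -0.08.

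**Figure D2:**
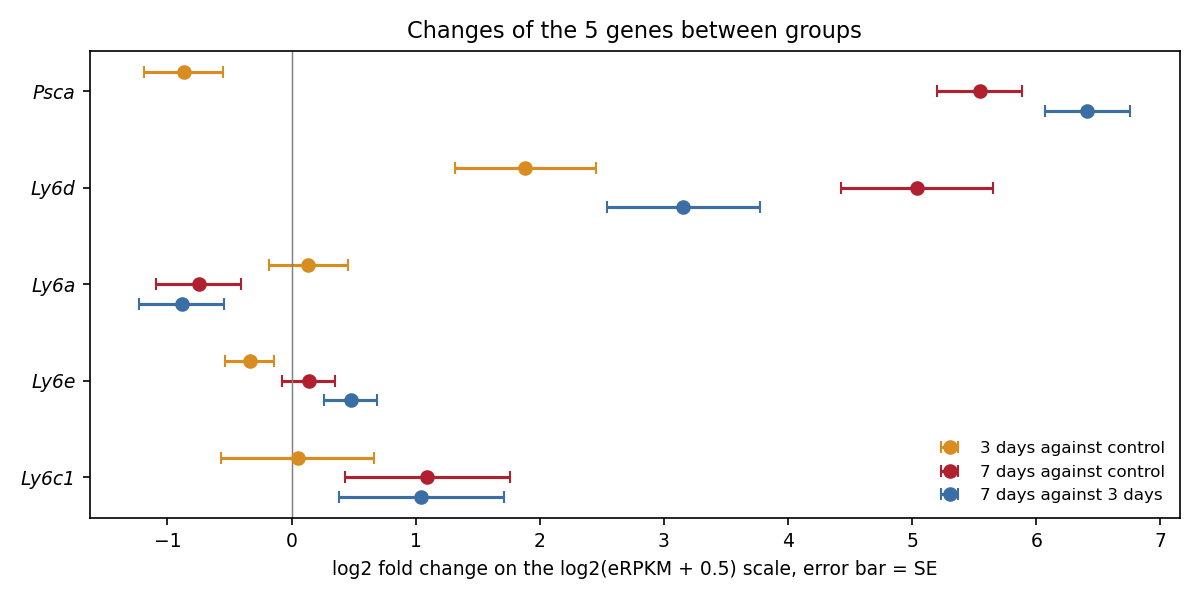
Log2 fold change of each gene (horizontal axis, log2(eRPKM + 0.5) scale, bars are SE from limma) in the 3 comparisons, the groups being control, 3 days and 7 days. Psca and Ly6d lie at 5.54 and 5.04 at 7 days against control, Ly6a lies below 0 at -0.75, and Ly6e lies at 0.14, a value that turns to -0.13 under median-ratio scaling.

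The order of the levels per length changed with induction. In controls Ly6e (mean 87.8 eRPKM) was first and Ly6a (20.8) second, with no overlap between them, and Ly6d (2.74), Ly6c1 (1.03) and Psca (0.475) followed with overlapping ranges. At 3 days Ly6e (70.2) stayed above the others, Ly6a (21.7) and Ly6d (13.9) overlapped, and Ly6c1 (1.12) and Psca (0) came last. At 7 days Ly6e (95.7) and Ly6d (92.4) overlapped at the top, Psca (43.7) and then Ly6a (11.2) came next, each without overlap with its neighbours, and Ly6c1 (2.34) was lowest.

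All 5 genes belong to a cluster of related genes on chromosome 15 that runs over 883 kb from Psca to Gpihbp1. The annotation places 20 other protein-coding genes in this stretch, of which 15 were found in the table and 9 passed the filter. None of the 9 passed the test at 3 days. At 7 days 3 of 9 rose against controls and none fell, where 18.0% of all genes rose and 5.77% fell. The 3 were Them6, Lynx1 and Slurp1, and all of them lie between Psca and Ly6d, a division of the cluster made after the values were seen. The median log2 difference of the 9 genes was 0.51 at 7 days, against 0.26 for all genes tested.

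Them6, named for a thioesterase-like domain and not a LY6 protein, is the next gene after Psca on the same strand (annotated there as 4930572J05Rik, 74551664 to 74554803). Controls gave 1.90 to 3.13 eRPKM. After 3 days the values were 3.43, 9.70, 9.57 and 9.03, and after 7 days 54.5, 52.3 and 64.6. Each group was above the one before it without overlap. It rose by 4.35 on the log2 scale at 7 days against control (SE 0.31, limma adjusted p = 1.83e-06), and by 2.87 against 3 days (adjusted p = 3.66e-05), and it was called in all 24 alternatives of both comparisons. The 3-day difference of 1.49 (SE 0.29) had an adjusted p of 0.0573, and among 24 alternatives it was called only without 3-day liver 1.

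Lynx1 encodes an anchored LY6 protein that tunes nicotinic acetylcholine receptors. It stood at 0.94 to 1.43 eRPKM in controls, with 0.64 to 1.42 after 3 days and 3.79 to 4.04 after 7 days, so the 7-day livers did not overlap the others. It rose by 1.36 against controls (SE 0.25, limma adjusted p = 0.00101), and the call was lost under quantile normalization and without the 3 libraries with the most genes seen. Slurp1, a secreted family member, had no read in any control, at most 1 at 3 days and 1 to 7 reads at 7 days. It was called at 7 days against control (limma adjusted p = 0.0082), and in 8 of 23 alternatives, from these few reads. Like Psca, Slurp1 needed the 7-day livers to pass the filter on low values, so its call is partly fixed by the filter. Among genes that passed without those livers, 2 of 8 rose in the cluster. Between the same ends, Lypd2 had at most 0.51 eRPKM in any liver.

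**Figure D3:**
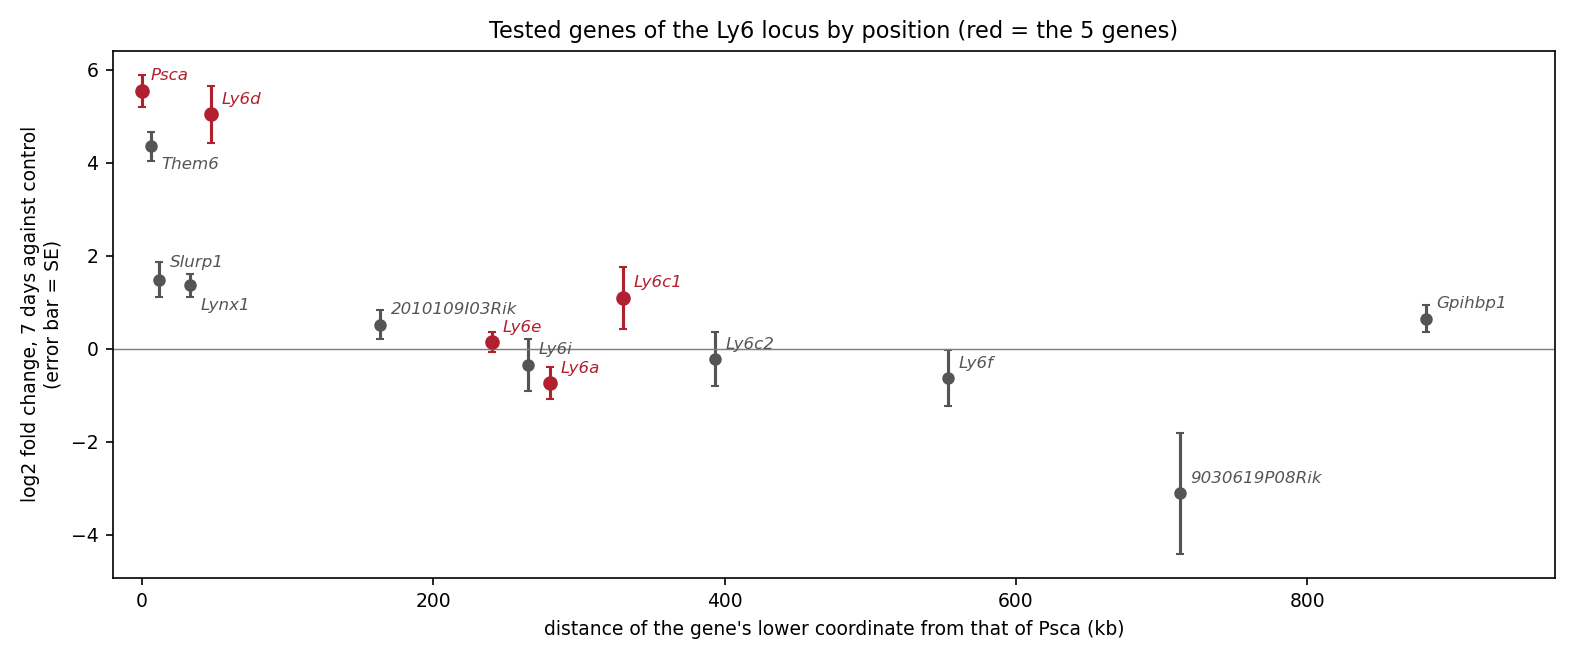
Log2 fold change at 7 days against control (vertical axis, bars are SE) of each tested gene of the cluster by its distance from Psca in kb (horizontal axis); the 5 genes are in red. Psca, Them6 and Ly6d, within the first 50 kb, lie above 4, and Slurp1 and Lynx1 in the same stretch lie well below them. The genes beyond 100 kb lie between 1.09 and -3.11.

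Another gene of the cluster, 9030619P08Rik (75258037 to 75262259, minus strand), was singled out after its values were seen. Female controls gave 103.9 and 86.5 eRPKM and male controls 1.45 and 1.81. At 3 days the females gave 47.7 and 145.8 and the males 20.8 and 16.2, and at 7 days the 3 livers, all female, gave 0.63, 1.71 and 1.28. The 7-day females were thus far below every other female liver. Over all livers the log2 difference at 7 days was -3.11 (SE 1.30, limma adjusted p = 0.0771) and did not pass. In the fit of female livers alone the log2 difference was -5.86 (SE 0.44) from controls and -5.67 from 3 days, given as a description with no test, since the gene was singled out for these values.

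**Figure D4:**
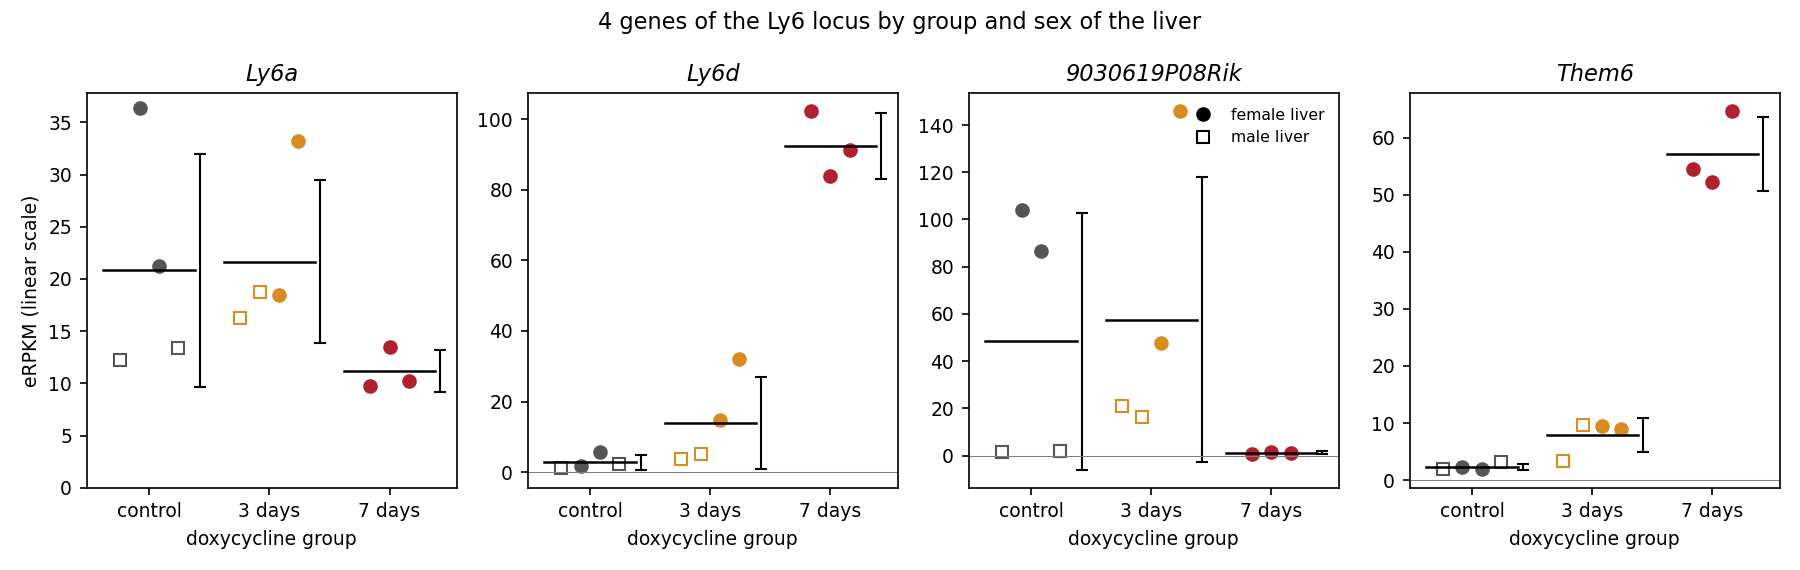
eRPKM (linear vertical axis) of 4 genes of the cluster by group; filled circles are female livers, open squares male livers, the line is the group mean and the bar its SD. 9030619P08Rik is at 47.7 or more in the 4 control and 3-day females and at 1.71 or less in the 3 females at 7 days, and Ly6a at 7 days is below all other females.

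Of 32 further genes of the LY6/uPAR family, 30 were in the table and 14 passed the filter. None passed the test at 3 days. At 7 days 3 of 14 rose against controls, where 18.0% of all genes did, and none fell. Those were Plaur, Lynx1 and Slurp1. Against 3 days 2 rose (Plaur and Lynx1, background 14.0%) and 1 fell (Cd59a, background 5.31%). Without the 3 libraries with the most genes seen, only Plaur was called in both comparisons. Slurp1 was 1 of 4 that needed the 7-day livers to pass the filter, and among the other 10 genes 2 rose against controls. The median log2 difference of the 14 genes was 0.08 at 7 days against control, below the 0.26 of all genes.

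Plaur is the receptor for urokinase and lends the family its second name. Controls gave 0.77, 0.55, 1.5 and 0 eRPKM. After 3 days the values were 0.90, 0.99, 0.82 and 0.33, and after 7 days 19.9, 10.3 and 28.5. As with Psca, the 3-day livers lay within the range of the controls and the 7-day livers far above them. Plaur rose by 4.11 on the log2 scale against controls (SE 0.45, limma adjusted p = 3.05e-05) and was called in all 24 alternatives, female livers alone included.

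Cd59a, an anchored inhibitor of the complement membrane attack complex, had its highest values at 3 days. Controls gave 44.6 to 55.9 eRPKM, against 62.0 to 79.9 after 3 days and 44.8 to 47.1 after 7 days, so the 3-day livers were above all others. It fell by 0.63 from 3 to 7 days (SE 0.14, limma adjusted p = 0.00479, called in 14 of 24 alternatives), whereas its 3-day difference from controls, 0.54 (SE 0.13), had an adjusted p of 0.105. Gpihbp1, which carries lipoprotein lipase across the capillary wall and closes the cluster, gave 19.5 to 61.2 eRPKM over the 11 livers and was not called.

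The machinery that makes and attaches the GPI anchor was followed through 29 genes, of which 28 were in the table and all 28 passed the filter. None passed at 3 days. At 7 days 4 of 28 rose against controls and none fell, which is below the 18.0% of all genes that rose. These were Pigt (log2 difference 1.26, SE 0.27, limma adjusted p = 0.00258), Dpm2 (1.03, adjusted p = 0.00469), Pigf (0.95, adjusted p = 0.00941) and Gpaa1 (0.87, adjusted p = 0.00701), the last named outside the rule. Pigt and Gpaa1 are subunits of the transamidase that joins the anchor to the protein, Dpm2 is a subunit of the mannose donor enzyme, and Pigf takes part in adding ethanolamine phosphate.

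Pigt gave 7.77 to 9.34 eRPKM in controls, against 5.52 to 12.5 after 3 days and 19.2 to 25.4 after 7 days, and the 7-day livers overlapped no others. Against 3 days Pigt and Pigs, another transamidase subunit, rose, 2 of 28 where 14.0% of all genes did. The median log2 difference of the 28 genes was 0.45 at 7 days, against 0.26 for all genes. In 16 of the 28 all 7-day livers stood above all controls and in none below, where 36.7% and 13.3% of all genes did. Without 7-day liver 3, in female livers alone, or without the 3 libraries with the most genes seen, 0 of 28 were called in both comparisons.

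Some markers of other cell types differed at 7 days as well, and their part in the values of the 5 genes was not tested. Of all genes tested, 18.0% rose and 5.77% fell at 7 days against control, the shares to set beside each count below. None of the marker lists held a called gene at 3 days, where 0.0421% of all genes were called. Of 7 monocyte and macrophage markers 5 rose at 7 days, Chil3 among them having passed the filter only with the 7-day livers, and their summed level was 72.2 to 133 eRPKM in controls, against 78.9 to 162 after 3 days and 289 to 348 after 7 days. Of 6 Kupffer cell markers 5 rose, with sums of 175 to 371, 214 to 408 and 698 to 729 eRPKM. All 7-day livers stood above all controls in 6 of the 7 monocyte and macrophage markers. The same held for 6 of the 6 Kupffer cell markers, where 36.7% of all genes did so. Ccr2, the chemokine receptor of recruited monocytes, gave 1.60 to 3.42 eRPKM in controls and 9.12 to 16.2 at 7 days. The Ly6 gene of the same list, Ly6c2, gave 0.93 to 2.91 in controls and 0.23 to 4.48 at 7 days, from 1 to 22 reads, and was not called.

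Liver endothelium, where Ly6a and Ly6c1 are known to be made, was followed through 12 markers. At 7 days against control 2 (Cdh5 and Lyve1) rose and none fell, where 18.0% and 5.77% of all genes did. The summed level of the 12 markers was 169 to 301 eRPKM in controls, against 198 to 348 after 3 days and 285 to 308 after 7 days. The list did not move as one. In 4 of the 12 markers all 7-day livers stood above all controls, as in Pecam1 with 20.5 to 25.7 against 10.7 to 19.4 eRPKM, where 36.7% of all genes did. In 1, Clec4g, a lectin of the sinusoidal endothelium, all stood below them, with 30.5 to 43.0 against 51.4 to 87.4 eRPKM, where 13.3% of all genes did. Clec4g was not called against controls but fell by 1.11 on the log2 scale against 3 days (SE 0.27, limma adjusted p = 0.00805). Of 18 interferon-stimulated genes 2 rose at 7 days against control (Ifit2 and Oas1a), where 18.0% of all genes did. The sums of the 18 genes were 270 to 391, 276 to 409 and 309 to 375 eRPKM in controls, at 3 days and at 7 days.

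Ly6d is also known from B lineage cells and from stratified epithelium. Of 6 tested B lymphocyte markers none was called at 7 days against control, and the sums over the list were 6.45 to 10.9 eRPKM in controls, against 4.18 to 4.93 after 3 days and 7.59 to 17.7 after 7 days. Of 12 stratified epithelium genes 4 passed the filter and 2 of these, Krt4 and Sprr1a, rose at 7 days, where 18.0% of all genes did. Sprr1a needed the 7-day livers to pass the filter, which leaves Krt4 as 1 of 3. The sums of the 12 genes were 3.51 to 6.14 eRPKM in controls, against 3.75 to 11.96 after 3 days and 42.8 to 63.5 after 7 days. Krt4, a keratin of the suprabasal layers of such epithelia, gave at most 0.73 eRPKM in controls, against 0.85 to 9.53 after 3 days and 30.9 to 59.9 after 7 days. The basal keratin gene Krt5 gave at most 0.45 in any liver, Krt14 gave 0.51 to 3.61 in controls and at most 0.76 after 7 days, and Sprr2a1 was at 0 throughout.

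The biliary and progenitor markers summed to 57.7 to 77.4 eRPKM in controls and 98.7 to 150.5 at 7 days. Of the 7 tested 2 rose (Krt7 and Prom1), where 18.0% of all genes did. In 4 of the 7 all 7-day livers stood above all controls, where 36.7% of all genes did. The hepatocyte markers summed to 1417 to 4277 eRPKM in controls and 1078 to 1199.6 at 7 days. Of the 7 tested 2 fell (Cyp2e1 and Ttr), where 5.77% of all genes did. In 6 of the 7 all 7-day livers stood below all controls, where 13.3% of all genes did. In all 7 they stood below all 3-day livers, where 13.8% did. Alb held 2417 to 3102 reads per control library, while control depth ran from 1251396 to 5495697, and 2840 to 2934 at 7 days. Its eRPKM was highest, at 918, in control liver 4, the shallowest. Hnf4a held 1072 to 3512 and 3237 to 3264 reads, and Cyp2e1 1721 to 2353 and 968 to 1029. The part of depth in these values was not tested. Of 5 neutrophil markers 2 rose at 7 days against control, of 8 T and NK lymphocyte markers 1 (Cd4), and of 7 stellate cell and fibroblast markers none. Their sums at 7 days were 37.8 to 52.7, 8.48 to 13.3 and 109 to 131 eRPKM, against 18.3 to 29.5, 4.32 to 12.98 and 155 to 218 in controls. All 7-day livers stood above all controls in 4 of 5 neutrophil markers and 1 of 8 lymphocyte markers, where 36.7% of all genes did. In 2 of 7 stellate cell and fibroblast markers all stood below them, where 13.3% did. Which cells carried the Psca and Ly6d RNA was not tested.

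The genes with the profile most like that of each of the 5 were named by the smallest root mean square difference between log2(eRPKM + 0.5) values, each gene centred on its own mean, over 11 livers and 12564 other genes with a mean of at least 1 eRPKM. For Psca these were Lrtm2 (0.67), a leucine-rich repeat membrane protein, Gpc3 (0.82), a GPI-anchored proteoglycan of fetal liver and liver cancer, and Ankrd1 (0.82), a well-known YAP target. All 3 had low values in the 8 control and 3-day livers. Lrtm2 gave a mean of 0.27 eRPKM in controls, 0.38 at 3 days and 35.9 at 7 days. Ankrd1 gave 0.75, 0.15 and 17.7, and Gpc3 1.80, 1.31 and 83.1.

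For Ly6d the nearest genes were Ccr3 (0.62), a chemokine receptor, Pls1 (0.67), which bundles actin in microvilli, and Dio3os (0.67), a non-coding RNA beside Dio3. Ccr3 gave means of 0.49, 5.0 and 28.1 eRPKM in controls, at 3 days and at 7 days. Pls1 and Dio3os shared with Ly6d the higher values in 3-day livers 3 and 4 (9.91 and 6.06, and 5.04 and 3.49 eRPKM) than in livers 1 and 2 (1.67 and 2.39, and 0.54 and 0.59). The likeness between Psca and Ly6d themselves was lower, at 1.79.

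**Figure D5:**
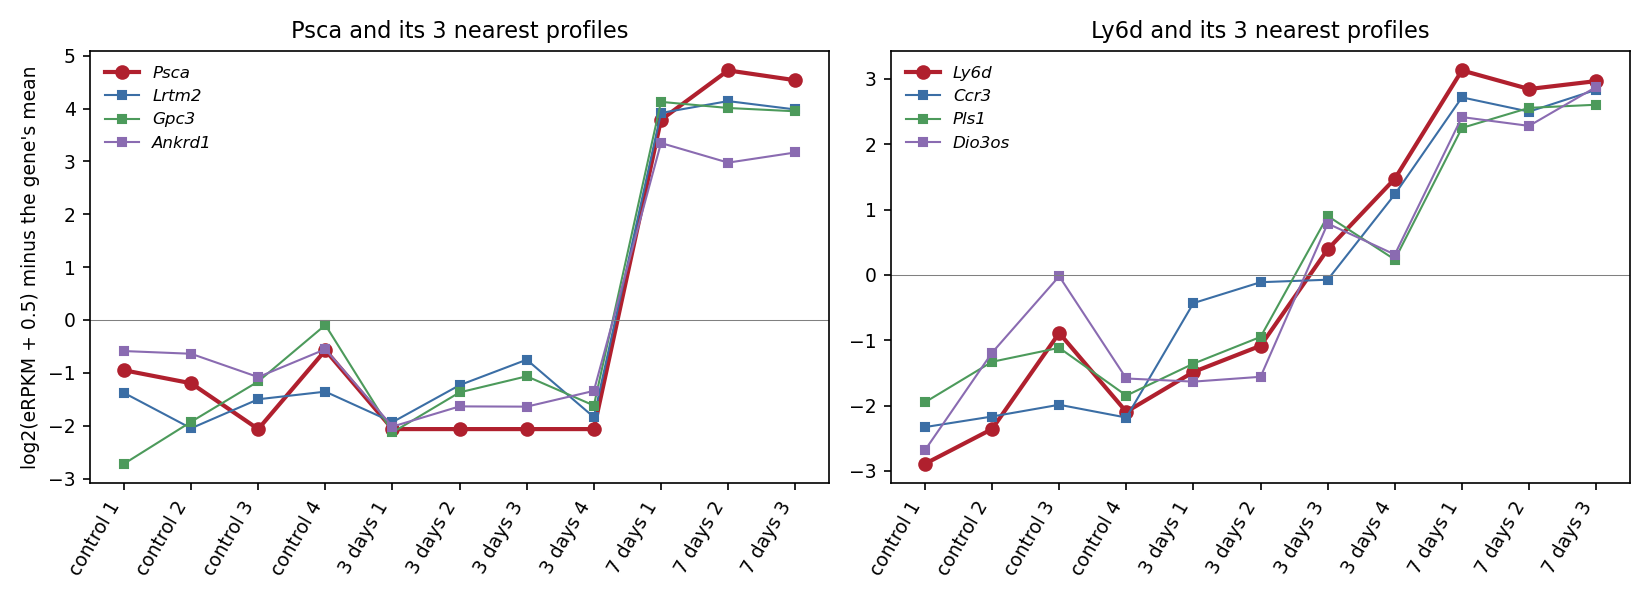
Log2(eRPKM + 0.5) minus the mean of each gene (vertical axis) in the 11 livers (horizontal axis) for Psca, for Ly6d and for the 3 genes nearest to each. The Psca set is low in all control and 3-day livers. Ly6d, Pls1 and Dio3os are higher in 3-day livers 3 and 4 than in livers 1 and 2. Ccr3 has intermediate values in every 3-day liver.

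Ly6a was closest to Igtp (0.22), an interferon-induced GTPase, to Dmrta1 (0.23) and to another family member, Cd59b (0.25). Igtp gave means of 37.7, 40.0 and 19.9 eRPKM in controls, at 3 days and at 7 days. Ly6e was closest to Rpl28 (0.13), a ribosomal protein gene, Zbtb40 (0.15) and the chaperone gene Hsp90ab1 (0.16). All 3 were, like Ly6e, lower in 3-day livers 1 and 4 than in livers 2 and 3. Rpl28 gave 87.4 and 93.0 eRPKM there, against 144 and 141. Ly6c1 was closest to Zdhhc24 (0.58), Qtrt1 (0.64) and Stx19 (0.67), with a larger distance than for Ly6a or Ly6e. Each set of 3 is the nearest of many genes and shares its libraries with the gene it is compared with.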

How the data were processed

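Bulk RNA-seq of 11 livers was analysed. Per the labels and the study's methods, the authors aligned read pairs to mm9 with TopHat2 2.0.8 without strand, and featureCounts 1.4.5-p1 is listed among their tools. The gene annotation and the handling of duplicates are not given in the sources used here. The deposited values are eRPKM, a form of RPKM, made by the authors per library. The 3 columns of the authors' DESeq2 comparison of 7 days with control (mean, fold change, adjusted p-value) were not used.

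Reads were recovered from the eRPKM steps: 177553 of 177553 values above 0 were whole within 0.1 read. They gave depth, read limits and 1 alternative fit. Genes with at least 0.5 eRPKM in 3 libraries (14244 genes) were fitted with limma 3.58.1 in R 4.3.3 on log2(eRPKM + 0.5), which understates changes of low genes. The 3 groups shared 1 fit, and p-values were adjusted over all genes (Benjamini-Hochberg). The step was tested on simulated data. Nothing states that livers of a group are separate litters, so p-values measure the spread between these livers.

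Members, gene lists and tests were chosen with earlier results of these data known. Of the listed genes, 3 were found under another name (Them6, Chil3, Pigyl). Named were the 5 genes, called family and cluster genes, the 3 called anchor genes with the largest change, markers from the cell type lists, and the 3 nearest profiles. The plan allowed up to 3 markers per list, first in list order, and the markers named for endothelium and stratified epithelium went beyond it. Coordinates and transcripts are GENCODE M1 (mm9). Alternatives were other pseudocounts, filters, scalings and fits, the replicate number as a block, each liver left out, and, added after seeing the data, female livers only, limma-voom on recovered reads, depth as a covariate, and the 3 libraries with the most genes seen left out.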

Additional observations from a re-analysis of the deposited data

Results flagged for a closer look

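Ly6a in the 3-day livers had 1 value apart from the rest. Liver 4 stood at 33.2 eRPKM against 16.3 to 18.7 in the other 3, a gap that takes 0.857 of the range of the group, above the 95% limit of Dixon's test for 4 samples. This was the only one past the limit among 10 sets of 4 livers, and chance gives about 1 in 20. Without that liver the log2 difference from controls at 3 days was -0.087 instead of 0.13.

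The following differences between the 3-day and the 7-day effect were tested as 7 days against 3 days in limma. They were 3.92 for Plaur, 2.87 for Them6, 1.47 for Lynx1 and -0.63 for Cd59a on the log2 scale.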

How the results depend on the processing

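For the 3-day comparison the direction of Psca, Ly6d and Ly6e held in all 24 alternatives and no member was called in any. Ly6a turned to -0.0042 with quantile normalization and -0.16 in female livers, and ran from -0.087 to 0.44 with 1 liver left out. Ly6c1 turned to -0.39 in female livers, -0.48 with limma-voom and -0.20 with depth as a covariate, and ran from -0.41 to 0.50 with 1 liver left out. Psca at 7 days against control was 4.91 with a pseudocount of 1, 6.61 with 0.1 and 6.23 with limma-voom, while Ly6e ran from -0.13 (median-ratio scaling) to 0.51 (quantile normalization) and Ly6c1 from 0.16 (depth as a covariate) to 2.11 (without the 3 libraries with the most genes seen). Members past the thresholds at 7 days against 3 days numbered 4 with quantile normalization. They numbered 1 in female livers, with depth as a covariate and without the 3 libraries with the most genes seen. With 1 liver left out they numbered 1 to 2, 1 being without 7-day liver 1. Nothing is read from these member counts, since the choice of genes used the 7-day values. Of the 14244 genes tested, 1436 rose and 1430 fell with quantile normalization, and 1023 and 401 in female livers. With depth as a covariate 1091 rose and 588 fell, and 824 and 305 without those 3 libraries. Without those 3 libraries the family had 1 call in both 7-day comparisons. Cluster calls in both were 1 with quantile normalization and 1 without the 3 libraries, and at 3 days 0 to 1 with 1 liver left out. Anchor gene calls against control were 2 with median-ratio scaling, 2 with quantile normalization, and 0 in female livers, with depth as a covariate and without the 3 libraries. They ran from 0 (without 7-day liver 3) to 5 with 1 liver left out, and were 1 without control liver 1, 7-day liver 1 or 7-day liver 2 and 2 without control liver 3. Against 3 days they were 1 with quantile normalization, 1 with only the 2 groups compared and 0 in those same 3 alternatives, and ran from 0 (without 7-day liver 3) to 4 (without 3-day liver 3), with 1 without 3-day liver 4, 7-day liver 1 or 7-day liver 2. The cause was not tested. The 1251396 reads of control liver 4 limit what low genes such as Psca and Ly6c1 can show. Over all genes, 53 rose and 1 fell at 3 days without 3-day liver 1.

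With the replicate number as a block, 2 anchor genes were called against control and 1 against 3 days, the family kept its 3 calls against control but lost Cd59a against 3 days, which left 2, and cluster calls stayed at 3 and 2. Livers share a number only: deviations of 10 same-numbered pairs correlated at -0.22 to 0.27, with 2 over 0.1.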
